A study of Mus musculus with 6 samples.

Results

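Expression of 10 genes of interleukin-6 (IL-6) family signaling was examined on 6 Illumina mouse BeadChip arrays: the cytokine genes *Il6*, *Il11* and *Lif*, the receptor genes *Osmr*, *Lifr*, *Il6st*, *Il6ra* and *Il11ra1*, the transcription factor gene *Stat3* and the inhibitor gene *Socs3*. Of the 10, 9 are among the 16593 genes that the annotation of the array names. These 9 had 15 of the 25697 probes between them, and no probe was named for *Il11ra1*. The genes were chosen from one pathway by name, with the differences between these same arrays already known, among them a higher *Socs3* and a lower *Il11*. Their values are therefore given as a description, with no p-value. They entered the fit over all probes, and how many passed its threshold is counted below only beside the share of all probes that did. RNA came from calvaria cells of C57BL/6 mice, with 3 arrays labelled *Mmp13* knock out and 3 labelled wildtype. According to the methods of the study, the former came from animals with floxed ERα (ERα f/f) that carry GFP:*Osx1-Cre*, in which estrogen receptor α is deleted where the *Osx1* (*Sp7*) promoter drives Cre. The latter came from GFP:*Osx1-Cre* controls, so that both carry the Cre transgene. Both were sorted for GFP, which reports that transgene. The methods describe calvaria cells of the ERα deleted cross as taken from newborn mice a few days old and cultured. The sources used here do not give the sex of the mice of these arrays or how many were pooled for each.

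The labels and the methods thus name different deletions, and the arrays are called by their labels here. The targeted genes were read first. *Mmp13* was higher on the arrays labelled as its knock out, with 12.41, 12.9 and 12.78 against 9.07, 9.53 and 9.82 on the wildtype arrays at its brightest probe, so the label goes against the measurement. Every direction below is that of arrays with this label. *Esr1*, which encodes ERα, had 2 probes and was not detected on any array, with a lowest detection p of 0.164, and so gives no check of either name. Values are the log2 signals that the authors normalized, and a probe counts as detected on an array where its detection p, the share of negative control beads that were as bright, is under 0.01. From 40.2% to 43.6% of probes were detected per array, and the lowest detected level was between 6.73 and 6.84 on the normalized log2 scale. The arrays labelled knock out were alike (r from 0.994 to 0.997 across tested probes, which are not independent replicates), and the wildtype arrays less so (r from 0.949 to 0.988). Wildtype replicate 2 lay over 1 log2 from the mean of its group's other arrays at 314 tested probes and replicate 3 at 204, against 12 for replicate 1 and at most 1 for any array labelled knock out.

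Cytokines of the IL-6 family signal through gp130, the shared receptor chain that *Il6st* encodes. IL-6 and IL-11 first bind a receptor chain of their own and then a pair of gp130 chains, whereas leukemia inhibitory factor (LIF) and oncostatin M join gp130 to a second signaling chain, the LIF receptor or the oncostatin M receptor. Kinases of the JAK family bound to these chains then phosphorylate STAT3, which enters the nucleus and induces, among other genes, *Socs3*. SOCS3 protein binds gp130 and the JAKs and shuts the signal off. In bone these cytokines act on osteoblasts and stromal cells, where they raise RANKL and promote osteoclast formation, and several of them also stimulate bone formation.

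A pair of short motifs are shown here because the genes that hold them include the one that was highest and the one that was lowest among the members. The letters TTCNNNGAA are the palindrome that STAT dimers bind, and TGANTCA is the site of AP-1, a factor that cytokine promoters are known to use. Both motifs read the same on either strand and do not overlap in these windows. They were searched on both strands in the 250 bases before each start site in a set of RefSeq promoters (GRCm38.p6). The set does not hold every start, and no window lay at the outer start of *Lifr*. The windows of *Socs3* and *Osmr* and the *Il11* window printed here lie inside the spans of their genes. The first motif was found in 1 of 13 windows of the member genes, that of *Socs3*, and in 7.02% of all 32851 windows. The second was found in 3 of 13 windows, those of the cytokine genes *Il6*, *Il11* and *Lif*, and in 6.75% of all windows. A match is a description of the letters and not of binding. The *Socs3* window (chr11:117969367-117969616, minus strand) and the *Il11* window (chr7:4778142-4778391, minus strand, the one of its 2 start sites that holds the motif) are given whole, and those of *Il6* (chr5:30012864-30012923, plus strand) and *Lif* (chr11:4257318-4257377, plus strand) for the 60 bases that hold it, each 5′ to 3′ with the motif in capitals. The motif begins 154 bases before the start of *Socs3*, 98 before that of *Il11*, 249 before that of *Il6* and 228 before that of *Lif*.
Socs3: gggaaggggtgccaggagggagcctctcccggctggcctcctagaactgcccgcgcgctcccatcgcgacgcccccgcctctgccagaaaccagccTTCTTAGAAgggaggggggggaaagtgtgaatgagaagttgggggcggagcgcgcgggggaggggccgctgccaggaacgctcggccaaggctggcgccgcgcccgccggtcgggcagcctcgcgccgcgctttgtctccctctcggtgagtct
Il11: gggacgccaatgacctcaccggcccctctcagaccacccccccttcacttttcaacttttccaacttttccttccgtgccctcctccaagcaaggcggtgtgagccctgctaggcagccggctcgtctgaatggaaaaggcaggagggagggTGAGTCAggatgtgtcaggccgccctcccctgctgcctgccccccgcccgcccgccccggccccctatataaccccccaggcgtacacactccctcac
Il6: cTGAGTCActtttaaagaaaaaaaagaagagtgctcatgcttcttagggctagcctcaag
Lif: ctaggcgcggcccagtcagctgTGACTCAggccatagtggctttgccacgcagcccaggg

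Among the members, *Socs3* was higher on the arrays labelled knock out, *Il11* and *Osmr* were lower, and the groups overlapped at *Il6st* and *Stat3*. The wildtype arrays spread too widely at *Il6st* to tell whether it differed. *Il6* sat at the edge of detection, and *Lif*, *Lifr* and *Il6ra* were not detected on most or all arrays. In sorted cells measured in bulk, fewer cells of a type and less RNA per cell cannot be told apart.

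**Figure D1:**
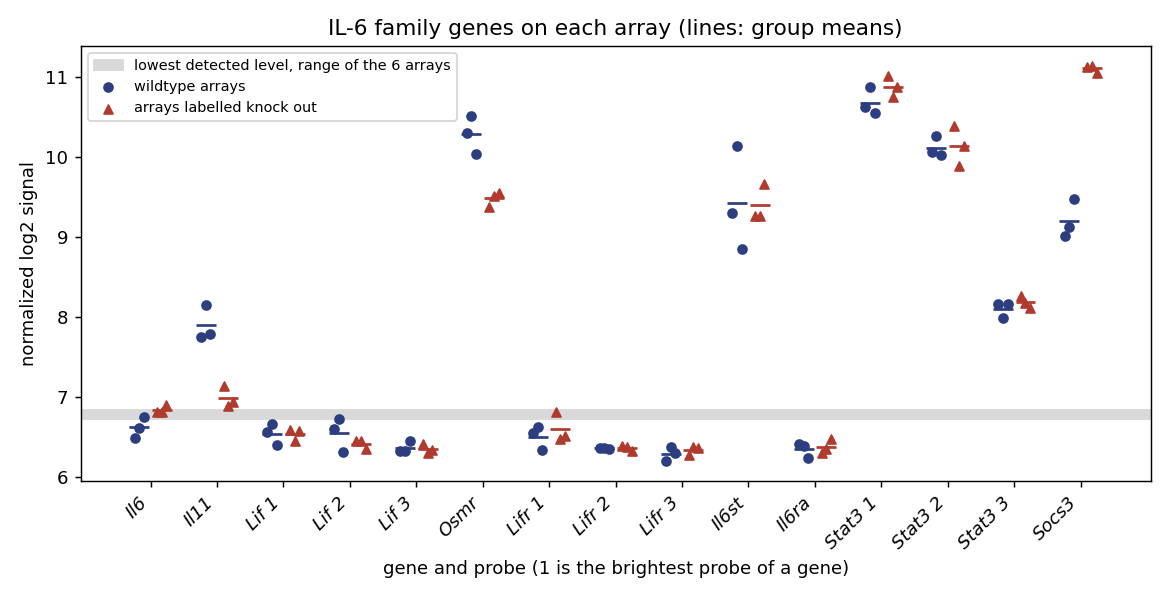
Normalized log2 signal of the 15 member probes on each of the 6 arrays, with lines at the group means and the grey band at the lowest detected level (6.73 to 6.84). *Socs3* is near 11.1 on all 3 arrays labelled knock out and below 9.5 on the wildtype arrays, while *Il11* and *Osmr* are lower on the former and *Lif*, *Lifr* and *Il6ra* lie at or below the band.

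*Il11* encodes IL-11, a cytokine of stromal cells that acts on osteoclast and osteoblast formation. Its probe read 7.14, 6.89 and 6.93 on replicates 1 to 3 labelled knock out and 7.75, 8.14 and 7.79 on the wildtype arrays. All wildtype arrays were above all arrays labelled knock out, and wildtype replicate 2 was the highest. The means were 6.99 ± 0.13 (SD, n = 3) and 7.89 ± 0.22 (SD, n = 3), a log2 difference of -0.90 with a standard error of 0.13, or 1.87-fold, which is 5.01 times the SD within groups. The probe was detected on all 6 arrays, but on the arrays labelled knock out it was only just above the lowest detected level. The normalized table keeps background in the signal, and with background corrected by neqc of limma the log2 difference was -1.53 (standard error 0.20), or 2.88-fold. Leaving out 1 array at a time gave -0.98 to -0.78.

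*Il6* encodes IL-6 itself. It read 6.81, 6.81 and 6.90 on the arrays labelled knock out, where it was detected on all 3 (detection p from 0.00125 to 0.00501). On the wildtype arrays it read 6.49, 6.62 and 6.75, with detection p from 0.00877 to 0.168, and it was detected on replicate 3 alone. The groups did not overlap, but all 6 values lay close to the lowest detected level. The log2 difference was 0.22 with a standard error of 0.09, and 0.56 (standard error 0.18) with background corrected. As most wildtype arrays did not detect the probe, these differences are taken against a level at background.

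*Lif* encodes LIF, and none of its 3 probes was detected on any array. The lowest detection p of each was 0.0226, 0.0451 and 0.232. Their normalized levels ran from 6.30 to 6.72, below the lowest detected level, and no fold is given. Nothing can be said about *Lif* at this signal beyond that limit.

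*Osmr* encodes the signaling chain of the oncostatin M receptor. It read 9.38, 9.51 and 9.55 on the arrays labelled knock out and 10.30, 10.51 and 10.04 on the wildtype arrays. The groups were apart, with the lowest wildtype array, replicate 3, still above each array labelled knock out. The means were 9.48 ± 0.09 (SD, n = 3) and 10.28 ± 0.24 (SD, n = 3), a log2 difference of -0.80 with a standard error of 0.13, or 1.74-fold. It was -0.86 with background corrected, and leaving out 1 array at a time gave -0.92 to -0.69.

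*Il6st*, the gene of gp130, was detected on all 6 arrays and spread widely within the wildtype group. It read 9.26, 9.26 and 9.66 on the arrays labelled knock out and 9.30, 10.14 and 8.85 on the wildtype arrays. Wildtype replicate 2 was the highest of all and replicate 3 the lowest of all. The log2 difference was -0.03 with a standard error of 0.31 and a 95% interval from -0.75 to 0.68, which leaves changes of either sign within it. The sign turned with the arrays kept, from 0.32 without wildtype replicate 2 to -0.32 without wildtype replicate 3.

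*Lifr* and *Il6ra* were at the level of background. *Lifr*, the LIF receptor, had 3 probes, of which 2 were detected on no array and the brightest on replicate 1 labelled knock out only. The brightest read 6.81, 6.47 and 6.51 on the arrays labelled knock out and 6.55, 6.62 and 6.33 on the wildtype arrays, and the groups overlapped. *Il6ra*, the IL-6 receptor chain, read between 6.23 and 6.48 on the 6 arrays and was detected on none (detection p from 0.158 to 0.822). The gp130 and oncostatin M receptor transcripts were thus the receptor transcripts of this set that could be measured in these cells. Levels of different probes are not compared here, since each probe has its own response.

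*Stat3* was measured by 3 probes, each detected on all arrays. The brightest read 11.01, 10.74 and 10.88 on the arrays labelled knock out and 10.62, 10.87 and 10.54 on the wildtype arrays, and the groups overlapped. Its log2 difference was 0.20 (standard error 0.12, 95% interval from -0.07 to 0.47). The other probes gave 0.02 (standard error 0.14) and 0.08 (standard error 0.09), also with overlap between the groups. These probes measure the transcript and not the phosphorylated protein through which STAT3 acts.

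*Socs3* encodes the feedback inhibitor of gp130 signaling. It read 11.13, 11.14 and 11.05 on the arrays labelled knock out, and 9.01, 9.12 and 9.48 on the wildtype arrays. The former lay close together, while among the wildtype arrays replicate 3 was the highest, and the groups were far apart. The means were 11.11 ± 0.05 (SD, n = 3) and 9.20 ± 0.24 (SD, n = 3). The log2 difference was 1.90 with a standard error of 0.13, or 3.73-fold, which is 10.8 times the SD within groups. The scanner signals before normalization showed the same separation, 1512.3 to 2600.8 against 536.7 to 703.5. By signed difference the probe ranked 21 from the highest of the 11089 tested probes. The difference was 2.03 with background corrected and ran from 1.81 to 2.04 with 1 array left out. The window with the STAT palindrome printed above is that of this gene, and whether STAT3 has a part in the difference was not tested.

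**Figure D2:**
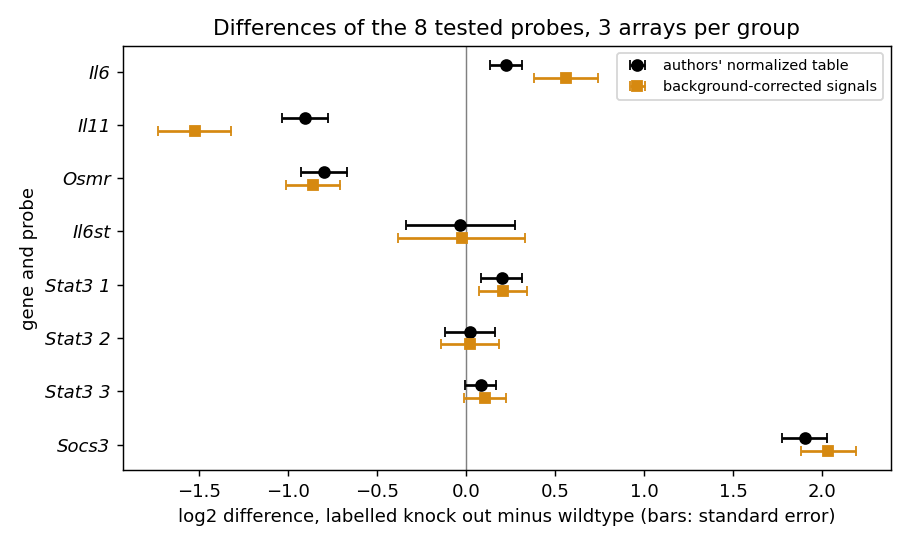
Log2 difference of the 8 tested member probes, arrays labelled knock out minus wildtype (3 arrays each), with standard errors, from the authors' normalized table and from signals corrected for background. *Socs3* is at 1.90 and 2.03, *Il11* moves from -0.90 to -1.53, *Osmr* lies at -0.80 and -0.86, and the bars of *Il6st* cross 0.

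Of the 15 member probes, 8 passed the filter of detection on at least 3 of the 6 arrays and entered the fit of limma over all tested probes. At an adjusted p under 0.05, 1 was called higher (*Socs3*) and 2 were called lower (*Il11* and *Osmr*), where 9.69% of all tested probes were higher, 9.51% lower and 19.2% called in all. The groups did not overlap at 4 of the 8 (these and *Il6*), where they did not overlap at 42.4% of all tested probes. As the members were chosen on this comparison, nothing is read from these counts. *Osmr* was not called with the scanner signals scaled to their medians, and *Il6* was called higher without wildtype replicate 3.

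The rest of the pathway was read from a list of 44 other genes of gp130, JAK and STAT signaling, of which 40 had a probe and 24 were tested. With the brightest probe standing for a gene, 2 passed as higher, 2 passed as lower and 20 failed (adjusted p under 0.05 from limma), beside 10.5% higher and 10.2% lower of all 7695 genes tested. Their median log2 difference was -0.03, and that of all genes was -0.03 as well. The shares are near those of all genes. The calls turned on single arrays. The higher ones ran from 0 without knock out replicate 2, knock out replicate 3 or wildtype replicate 1 to 4 without wildtype replicate 2, and the lower ones from 0 without knock out replicate 2 or wildtype replicate 1 to 4 without wildtype replicate 3.

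Among other ligands, *Ctf1*, which encodes cardiotrophin-1, a gp130 cytokine, was higher. It read 8.04, 7.98 and 8.08 against 7.61, 7.56 and 7.75 (log2 difference 0.40, standard error 0.08, adjusted p = 0.018 from limma). *Ctf1* did not pass without any single array labelled knock out, without wildtype replicate 1 or with median scaling. *Clcf1*, a ligand of the ciliary neurotrophic factor receptor, had a difference of 0.27 (adjusted p = 0.16). *Osm*, the gene of oncostatin M and so of a ligand of the *Osmr* chain, was detected on no array, nor were *Cntf*, *Ctf2*, *Il27*, *Ebi3* or the receptor gene *Cntfr*. 

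The kinases were not called. *Jak1* read 8.49, 8.80 and 8.64 against 8.93, 9.33 and 8.86, with no overlap (log2 difference -0.40, standard error 0.14, adjusted p = 0.097 from limma), *Jak2* had a difference of -0.07 (adjusted p = 0.58) and *Tyk2* of -0.12 (adjusted p = 0.29). *Jak1* was called lower without wildtype replicate 3. None of the 3 tested genes for other STATs was called either (*Stat2*, *Stat5a* and *Stat6*, adjusted p from 0.13 to 0.72), although *Stat2* was called higher without wildtype replicate 2 and with array weights.

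Of 12 inhibitors tested, 1 was called higher and 2 lower, beside 10.5% higher and 10.2% lower of all genes. *Socs2*, which restrains growth hormone signaling, was higher, at 9.90, 9.97 and 10.03 against 9.48, 9.52 and 9.63 on the wildtype arrays (log2 difference 0.42, standard error 0.08, limma adjusted p = 0.013). *Socs5*, another protein of the SOCS family, was lower, at 9.02, 9.05 and 9.14 against 9.52, 9.43 and 9.57 (log2 difference -0.44, limma adjusted p = 0.011). *Ptpn6*, which encodes the phosphatase SHP-1 of blood cells, was detected on all 3 wildtype arrays and on no array labelled knock out, with a level at least 1.09-fold lower (limma adjusted p = 0.047). This bound takes the arrays where it was not detected at their lowest detected level. *Ptpn6* passed the filter on detection only through the group where it was higher, so nothing is read from its call. *Cish*, a target of STAT5, had a difference of 0.13 (adjusted p = 0.34), and *Socs1* was detected on 1 array and not tested. *Socs2* did not pass without knock out replicate 2 or 3 or wildtype replicate 1, and *Socs5* without knock out replicate 2 or wildtype replicate 1. Both also failed with median scaling. *Ptpn6* passed in only 2 of 12 other settings, with neqc and without wildtype replicate 3.

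A list of 34 genes known to be induced by STAT3 or gp130 cytokines had 26 tested members. Of these 4 passed as higher, 3 passed as lower and 19 failed (limma, adjusted p under 0.05, with 10.5% of all genes higher and 10.2% lower), and their median log2 difference was -0.05. The higher genes were *Il1rn*, the antagonist of the interleukin-1 receptor (3.10), *Birc5*, which encodes survivin and is also a gene of mitosis (1.67), *Hp*, the acute phase protein haptoglobin, and *Nfil3*, a transcription factor (0.37, adjusted p = 0.022). *Hp* was detected on all 3 arrays labelled knock out and on no wildtype array and was at least 1.29-fold higher (limma adjusted p = 0.025). *Hp* thus passed the filter on detection only through the group where it was higher, so nothing is read from its call. The lower genes were *Klf4*, a transcription factor (-0.97, adjusted p = 0.0019), *Ier3*, an early response gene (-0.91, adjusted p = 0.0024), and *Ccl2*, a chemokine for monocytes (-0.86, adjusted p = 0.0022).

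Other response genes, chosen here after their values were seen, were not called. *Junb* had a difference of -0.48 with a standard error of 0.40, since wildtype replicate 2 read 10.42 and the other wildtype arrays 9.23 and 8.64, *Cebpb* one of -0.41 (adjusted p = 0.14), *Bcl3* one of -0.06 and *Timp1* one of -0.11 (adjusted p = 0.35). *Pim1*, *Lcn2* and *Steap4* were detected on no array. The higher calls of the list ran from 2 without knock out replicate 1, knock out replicate 2 or wildtype replicate 1 to 7 without wildtype replicate 3. The lower calls rose to 5 without wildtype replicate 3 and 6 without wildtype replicate 2. With detection required on all 6 arrays, 3 genes of the list were called higher and 4 lower. *Nfil3* did not pass without any single array labelled knock out or without wildtype replicate 1, and *Hp* did not without knock out replicate 1, knock out replicate 2 or wildtype replicate 1. *Il1rn*, *Birc5*, *Klf4*, *Ier3* and *Ccl2* were called with each of the 6 arrays left out. With median scaling *Ccl2*, *Hp* and *Nfil3* were not called. *Nfil3* also failed with the replicate block and *Hp* with array weights.

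**Figure D3:**
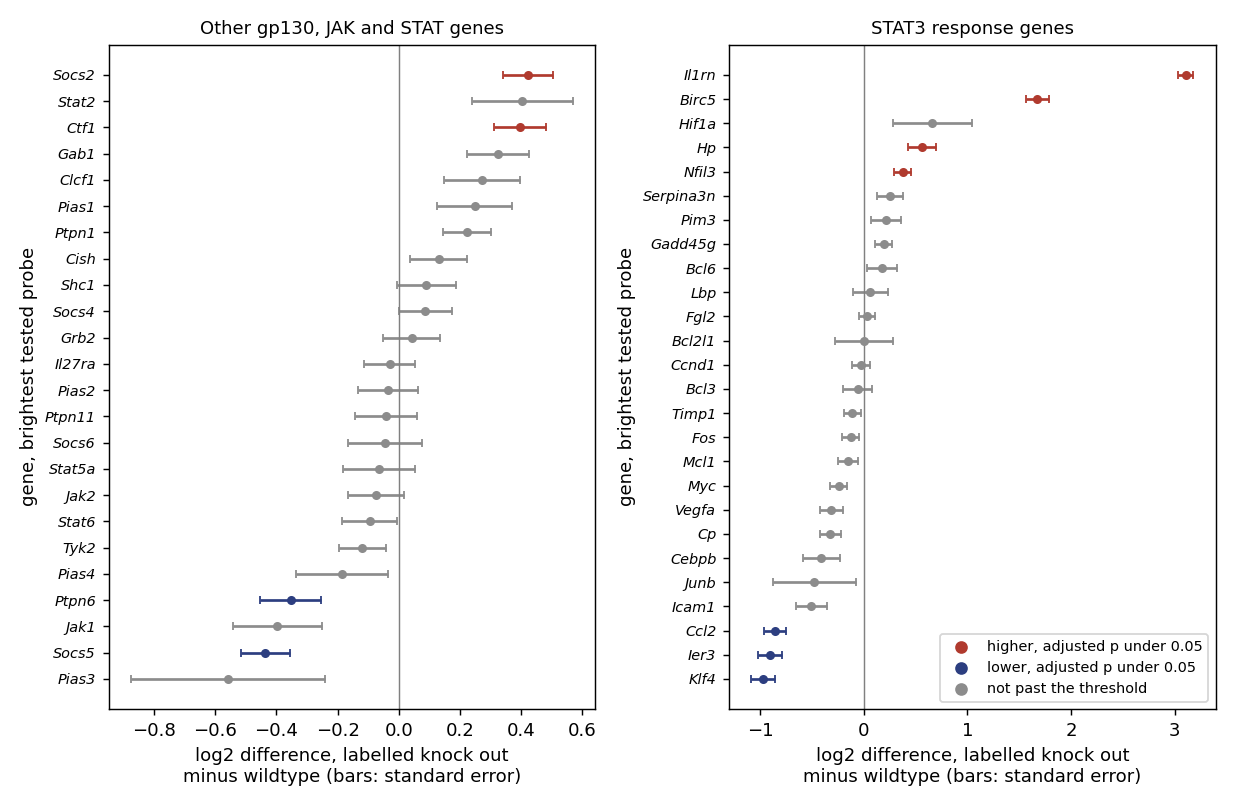
Log2 difference with standard error of the 24 tested genes of the gp130, JAK and STAT list (left) and the 26 tested STAT3 response genes (right), by the brightest probe, arrays labelled knock out minus wildtype, 3 arrays each. Most genes of both lists are grey, not past the adjusted threshold, and the right list runs from -0.97 (*Klf4*) to 3.10 (*Il1rn*).

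The genes with the profile most like that of *Socs3* over the 6 arrays, each centred on its own mean, were *Hmgb2*, a chromatin protein (root mean square distance 0.148 log2), *Cxcl12*, a stromal chemokine (0.155), and *Igfbp3*, which binds insulin-like growth factors (0.169). They had log2 differences of 1.79, 1.75 and 1.67. Nearest to *Il11* were *Limk1*, a kinase of the actin cytoskeleton (0.0775), *Ier3* (0.0847) and *Igfbp6* (0.0913), with differences of -0.89, -0.91 and -0.79. Like *Il11*, they were highest on wildtype replicate 2. The distances describe 6 arrays in 2 groups and were not tested.

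**Figure D4:**
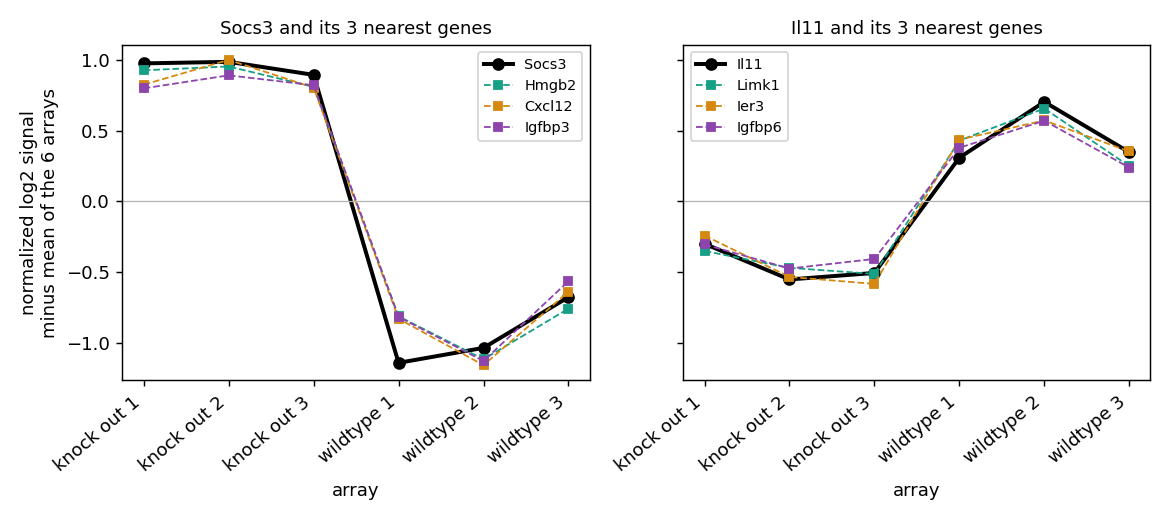
Normalized log2 signal minus the mean of the 6 arrays for *Socs3* (left) and *Il11* (right), each with its 3 nearest genes. The *Socs3* set is high on the 3 arrays labelled knock out, and the *Il11* set is low there and highest on wildtype replicate 2.

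Markers of other cells moved with the same groups. Of 15 macrophage and osteoclast markers, 13 had a probe and 8 were tested. Of these, 7 were lower on the arrays labelled knock out (adjusted p under 0.05 from limma), beside 10.2% of all genes. *Tyrobp* was detected on all 3 wildtype arrays and on no array labelled knock out, and *Ctss* on all 3 and on 1. Both passed the filter on detection through the wildtype arrays, where they were higher, so nothing is read from their calls. *Tyrobp* was also not called with median scaling. Among the 7 were also *Lyz2*, the lysozyme gene of myeloid cells (11.57, 11.87 and 11.32 on the wildtype arrays, 10.07, 10.18 and 10.15 on the others) and *Cd14*, a receptor for endotoxin (log2 difference -1.12). *Ctsk*, the tested marker that was not called, had a difference of 0.12 (limma adjusted p = 0.31). It read 12.10, 12.12 and 12.25 on the arrays labelled knock out and 11.98, 12.06 and 12.07 on the wildtype arrays. The summed normalized level of the 8 tested markers, on the linear scale, was 6509.5 to 6925 on the arrays labelled knock out and 8779 to 10086 on the wildtype arrays. *Ctsk* was the brightest of them on every array, so it weighs most in these sums. *Ptprc*, *Itgam*, *Acp5* and *Mmp9* were detected on no array. The part of these cells in the differences of *Socs3*, *Il11* and *Osmr* was not tested. The osteoblast lineage to which the sort was directed was present: of 11 markers 9 had a probe and all of these were tested. Of the 9, 4 were higher (*Ibsp*, *Bglap*, *Alpl* and *Col1a2*) and 1 lower (*Sp7*), beside 10.5% higher and 10.2% lower of all genes. *Ibsp* was detected on all 3 arrays labelled knock out and on no wildtype array. It passed the filter on detection only through the group where it was higher, so nothing is read from its call. *Col1a2* passed in only 2 of 12 other settings and failed without any single array other than wildtype replicate 2. *Alpl* failed without knock out replicate 1, knock out replicate 2 or wildtype replicate 1. With median scaling *Alpl* and *Sp7* failed as well. *Sp7*, whose promoter drives the Cre and GFP, read 9.65, 9.48 and 9.51 against 10.45, 10.24 and 10.17. No endothelial marker passed the filter, and of the lymphocyte markers *Cd3e* alone did, with a difference of -0.14 (adjusted p = 0.30).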

How the data were processed

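Total RNA of sorted calvaria cells was hybridized to Illumina MouseRef-8 BeadChips. The intensity deposited for each probe is the BeadStudio signal, which the authors read on a BeadArray instrument and left unnormalized, with a detection p-value that the authors deposited beside it. The deposited log2 values were made by the authors with the lumi package (version not given in the sources used here), and their sorted values lay within 0.0031 of a quantile normalization of the log2 signals without background correction. All 25697 probes were linked one to one between the tables by their ranks on the 4 arrays named in both, and 8 of 8 probes named by gene in the scanner table fell on that gene. The headings of 2 knock out arrays in the scanner table are the same, so these were used by group there, and replicate numbers are those of the log2 table.

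Probes were named from the platform annotation, with symbols updated through RefSeq (GRCm38.p6). 23978 probes have 1 gene, none has several and 1719 are not named. No probe coordinates are given. The 11089 probes detected (p under 0.01) on 3 or more of 6 arrays were tested with lmFit and eBayes of limma 3.58.1 in R 4.3.3, adjusted by the Benjamini-Hochberg method. Quantile normalization, limma and the adjustment follow the methods of the study, whereas the filter on detection was added here. The fit was checked on simulated data. The genes and the lists were chosen with earlier results of these data known, and no list was tested as a set. Up to 6 called genes per list with the largest difference, fixed genes of the pathway and the 3 nearest profiles of *Socs3* and *Il11* were named by rule. *Nfil3*, uncalled STATs and the named markers fall outside it and were chosen after their values were seen. Alternatives were neqc (offset 16), cyclic loess and median scaling of the signals, other filters, a trended robust variance, array weights, any probe per gene, each array left out and the replicate number as a block. The number of arrays limits the precision. Whether a group's arrays hold separate cultures or mice is not stated, so p-values measure the spread between arrays, and no exact permutation test of 3 against 3 arrays can go below p = 0.1.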

Additional observations from a re-analysis of the deposited data

How the results depend on the processing

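The members were chosen on this comparison, so their stability is a description and no support. *Socs3* and *Il11* stayed past the threshold in the same direction under all 12 other settings for which calls of single members were listed, and *Osmr* under all but median scaling. The differences of the tested member probes moved by over 1 SD for *Il6* and *Il11* with neqc only, and no called member changed sign. Scaling the signals to their medians gave the fewest calls: 215 probes higher and 143 lower, against 1074 and 1055, with 1 member probe lower, 0 pathway genes higher, 0 lower and 2 STAT3 response genes higher. The pathway genes lower were 1 with cyclic loess, without a filter, with detection on all 6 arrays and with array weights, where 4 were higher. The cause was not tested. With 1 array left out the probes higher ran from 448 to 1842 and the probes lower from 392 to 1967, the lowest without knock out replicate 3 and the highest without wildtype replicate 3. The member probes higher were 1 to 2, the pathway genes higher 0 to 4 and lower 0 to 4, and the STAT3 response genes higher 2 to 7 and lower 3 to 6. Samples share a number but no stated origin. Deviations of the same-numbered arrays had r = 0.105, -0.0552 and -0.0501, and not every array correlated best with its own number. With the replicate block 718 probes were higher and 613 lower, 1 pathway gene was lower, and the same 3 members were called. Of 124 counts under all alternatives 83 stayed within 1.5 times the value reported and 41 did not. Signals near background limit *Il6*, *Lif*, *Lifr* and *Il6ra*.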
